A study of Mus musculus with 16 samples.

Results

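The 9 germline genes described here are Dazl, Ddx4, Mael, Asz1, Tdrd1, Tex19.1, Stra8, Sycp1 and Sycp3, which mouse germ cells use to bind germline RNA, silence transposons or pass through meiosis. They were chosen by name, with earlier results of these data known, from the 27807 genes of the RNA-seq table, and all 9 had a mean of at least 10 normalised counts, the filter that left 16124 genes for testing. Polyadenylated RNA was sequenced from embryonic stem (ES) cells and from embryoid bodies, which are floating aggregates of differentiating ES cells, in 8 groups of 2 libraries. The groups were Taf4+/+ (WT) and Taf4-/- (KO) cells at the ES stage, in embryoid bodies before retinoic acid was added (EB4), and in embryoid bodies at an earlier (EB5) and a later (EB8) time of retinoic acid treatment on the way to neurons. Taf4 (gene Taf4a) belongs to TFIID, the multiprotein complex that recognises core promoters and recruits RNA polymerase II, and the KO lines carry germline null alleles, so that they lacked it before differentiation began. There were 2 independent lines for each genotype, derived from blastocysts and kept on mouse embryonic fibroblast feeders. The labels number the replicates but do not say which number is which line, and with 2 libraries a group the p-values measure only the spread between such libraries.

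Genes of the germline are kept silent in most somatic cells by DNA methylation of their CpG-rich promoters and by repressor complexes that bind E-box and E2F motifs. Pluripotent cells transcribe part of them at a low level, and in the embryo they are switched on as primordial germ cells lose DNA methylation. Stra8 is induced by retinoic acid, the signal that starts meiosis in the fetal ovary and in the postnatal testis, and that is also used in culture to turn embryoid bodies into neural cells.

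The libraries held 22442118 to 40711826 reads in genes, and each ES library (at least 32631020 reads) was deeper than each embryoid body library (at most 27685306), so that differences between ES and embryoid bodies cannot be told apart from those of depth. The 3 embryoid body stages overlapped in depth. Taf4a did not check the labels, since its normalised counts ran from 1591 to 1960 in the 8 WT and from 1973 to 2400 in the 8 KO libraries, and a count per gene does not show which exons are left. The X chromosome stood at a raised level of 0.36 to 0.58 in 5 libraries, against -0.22 to -0.07 in the other 11. These levels are on the log2 scale, as the median of its genes, each against its own median over all libraries. The 5 libraries were WT ES replicate 2 and KO replicate 2 at each of the 4 stages. No member lies on the X chromosome, but counts are also given without these 5 libraries, which leaves KO groups with 1 library that is assumed to vary like the others. Chromosome 8 was raised by 0.42 to 0.43 in WT replicate 1 of the embryoid bodies, and chromosome 11, which carries Tex19.1, by 0.15 to 0.23 in KO replicate 1 at each stage. The summed counts of 7 ES cell markers were 5230 and 6760 in the WT EB8 libraries and 24700 and 25500 in KO EB8, and those of 6 neural progenitor markers 19000 and 24300 in WT versus 3750 and 3790 in KO. These are bulk samples, in which fewer cells of a type and less RNA per cell cannot be told apart.

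The comparison of KO with WT asks which of these genes differ when Taf4a is inactivated. At EB8 5 of the 9 rose in KO (Dazl, Ddx4, Mael, Asz1 and Tex19.1), none fell, and the median log2 change was 2.74, against -0.03 over all 16124 genes (limma on log2 of the normalised count plus 1, Benjamini-Hochberg adjusted p with a threshold of 0.05). Over all genes 10.4% were called higher and 12.5% lower, and with upper-quartile rescaling the numbers of genes were 2278 higher and 1615 lower in place of 1677 and 2020. Both KO values lay above both WT values for 7 of the 9 genes, an arrangement that 30.4% of all tested genes shared. Without the 5 libraries with a raised X chromosome, 2 members (Dazl and Tex19.1) passed and the log2 changes of the 8 that could be fitted were 1.02 to 4.25, while 1970 genes passed in all. Asz1 was not fitted there, since without those libraries its mean fell below the filter. At ES no member passed.

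**Figure D1:**
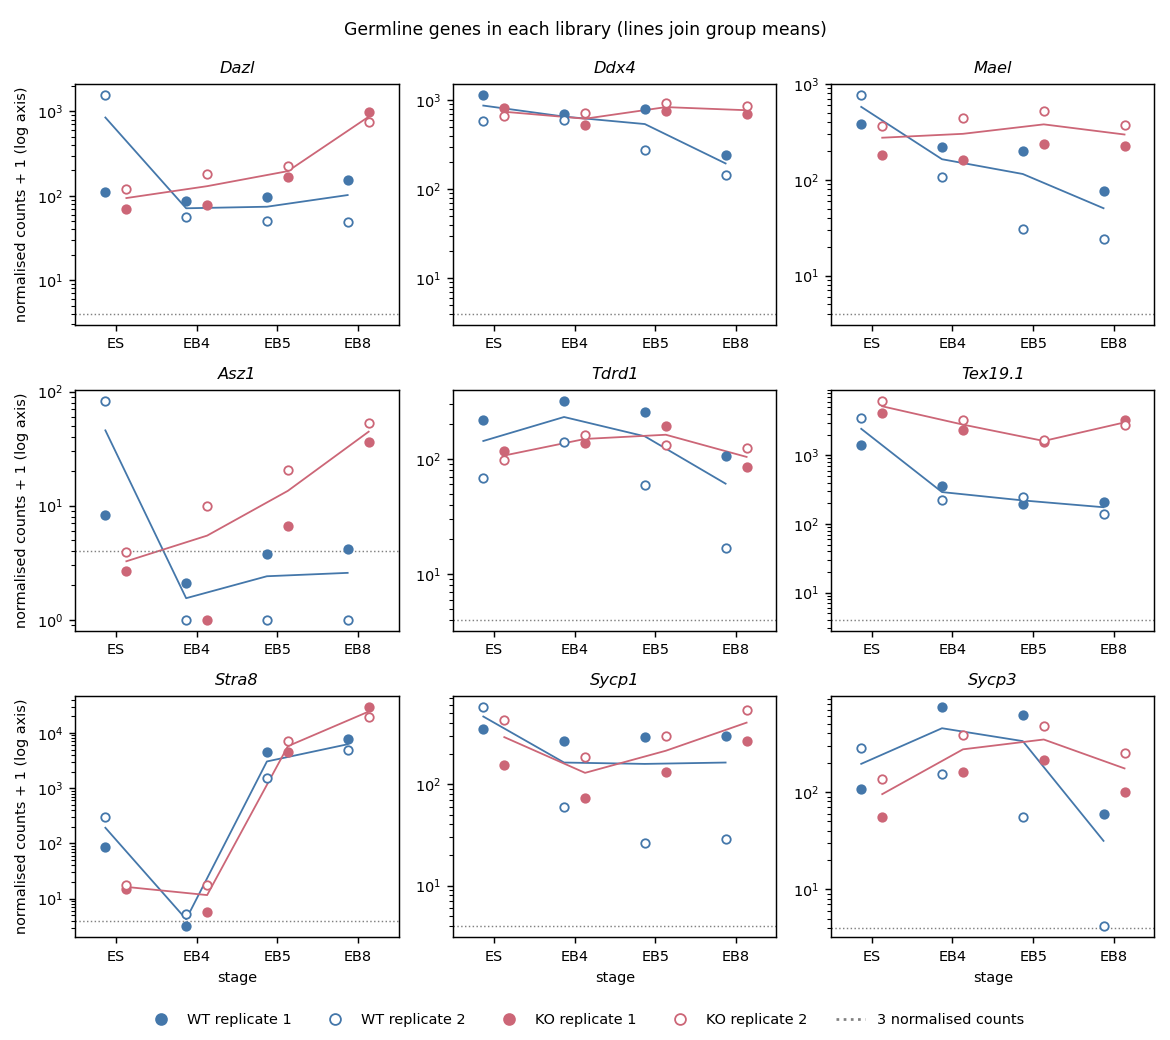
Normalised counts plus 1 (log axis) of the 9 germline genes in each of the 16 libraries by stage, with filled points for replicate 1, open points for replicate 2, lines through group means, and a dotted line at 3 normalised counts. KO values lie above both WT values at EB8 for 7 genes, WT ES replicate 2 stands above the other ES libraries for Dazl and Asz1, and Stra8 climbs from near the floor at EB4 to at least 1549.5 counts in both genotypes at EB5.

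Dazl and Ddx4 are markers of germ cells. Dazl (ENSMUSG00000010592, NCBI37 chromosome 17, 50418719 to 50432924, minus strand) encodes an RNA-binding protein that sustains translation of germline mRNAs. Its normalised counts at EB8 were 154.4 and 47.6 in WT versus 982.3 and 746.7 in KO. It thus rose 8.56-fold in KO (log2 change 3.30 ± 0.96 SE, limma adjusted p 0.0266). At EB5 the counts were 96.9 and 49.4 in WT versus 165.9 and 224.0 in KO, and at EB4 85.5 and 54.7 in WT versus 75.9 and 181.2 in KO, so that the groups were apart at EB5 and overlapped at EB4. Neither stage passed the test (log2 change 1.46 and 0.77, limma adjusted p 0.422 and 0.677). The ES libraries showed the widest spread of this gene, with 111.0 and 1581.8 in WT versus 68.1 and 117.9 in KO. WT ES replicate 2 was therefore the single library in which Dazl was as high as in KO EB8, and it is also a library with a raised X chromosome. The EB8 call was lost without WT EB8 replicate 2 (log2 change 2.46, adjusted p 0.185), KO EB8 replicate 1 (3.10, adjusted p 0.119) or KO EB8 replicate 2 (3.50, adjusted p 0.0784).

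Ddx4 (ENSMUSG00000021758, chromosome 13, 113388541 to 113442518, minus strand), the Vasa helicase of germ granules, followed another course. Its counts in WT were 1155.9 and 584.4 at ES, 703.6 and 603.7 at EB4, 799.8 and 277.8 at EB5 and 242.6 and 145.1 at EB8. In KO they were 823.5 and 658.3, 528.0 and 709.5, 754.7 and 918.3, and 692.1 and 850.1 at the same stages. The KO level stayed within a narrow band while the WT level at EB8 lay below each other library of this gene. From ES to EB8 Ddx4 fell in WT (log2 change -2.13, limma adjusted p 0.00217), and KO exceeded WT at EB8 by 3.98-fold (2.03 ± 0.45 SE, limma adjusted p 0.00704). That call was lost without WT EB8 replicate 2 (1.66, adjusted p 0.0705) and without the libraries with a raised X chromosome (1.88, adjusted p 0.0948).

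**Figure D2:**
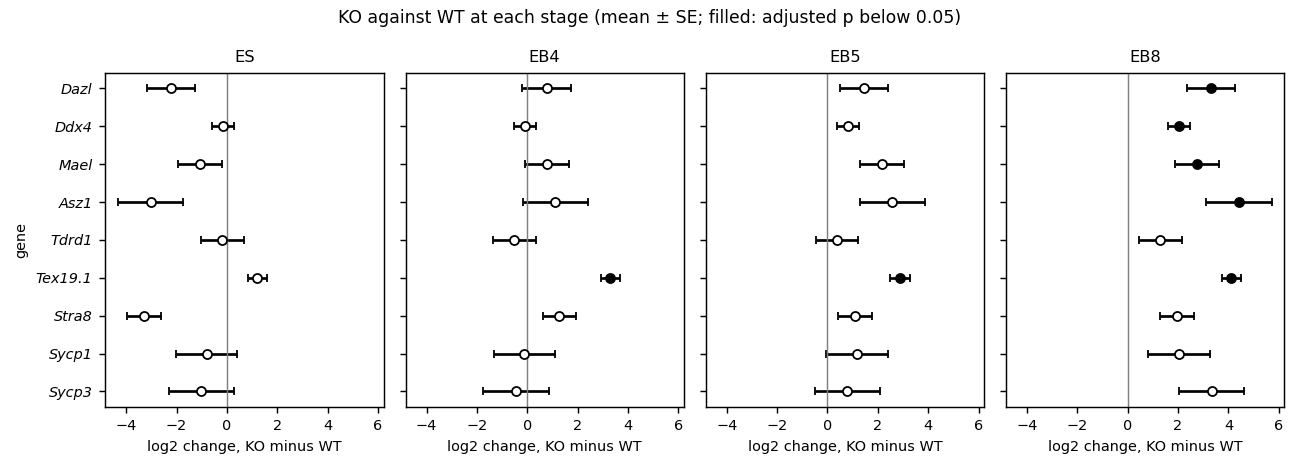
Log2 change of KO minus WT (x axis) of each germline gene (y axis) at the 4 stages, with bars of 1 SE from limma and filled points for adjusted p below 0.05. Tex19.1 is filled at EB4, EB5 and EB8, and at EB8 5 of the 9 genes are filled and all lie to the right of 0.

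Mael, Asz1 and Tdrd1 act in the piRNA pathway, in which small RNAs guide the silencing of transposons from granules next to the mitochondria (nuage). Mael (ENSMUSG00000040629, chromosome 1, 168131516 to 168168875, minus strand) encodes a nuage protein needed for transposon silencing. It had normalised counts in WT of 378.6 and 774.2 (ES), 221.4 and 105.1 (EB4), 197.6 and 29.6 (EB5) and 75.6 and 23.3 (EB8). Its KO counts at these stages were 181.0 and 366.6, 160.1 and 442.8, 234.2 and 522.7, and 222.6 and 369.6. The WT level fell from ES to EB8 (log2 change -3.65, limma adjusted p 0.00445), whereas the KO values of the 4 stages overlapped. At EB8 Mael was 5.99-fold higher in KO (2.74 ± 0.87 SE, limma adjusted p 0.0387), and at EB5 the groups did not overlap but the test was not passed (2.17, adjusted p 0.176). The EB8 call of Mael was lost when WT EB8 replicate 2 (1.91, adjusted p 0.247), KO EB8 replicate 1 (3.10, adjusted p 0.0845) or KO EB8 replicate 2 (2.37, adjusted p 0.172) was left out, and also with edgeR (adjusted p 0.0591).

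Asz1 (ENSMUSG00000010796, chromosome 6, 18000964 to 18059061, minus strand), which encodes an ankyrin-repeat protein of nuage and the mitochondrial surface, was near the floor of detection in most libraries. A library with 3 reads or fewer was taken as at the floor. In WT the reads were 8 and 103 at ES, 1 and 0 at EB4, 3 and 0 at EB5 and 3 and 0 at EB8. In KO they were 2 and 4, 0 and 7, 6 and 20, and 33 and 49. Thus each WT embryoid body library was at the floor, and both KO EB8 libraries were clear of it. The summed reads of KO EB8 were 27.5 times those of WT EB8 after scaling (exact 95% binomial interval 9.08 to 136, counting error only), and the gene rose in the test (log2 change 4.42 ± 1.30 SE, limma adjusted p 0.0279). At EB5 the ratio was 8.15 (2.50 to 42.1), with limma adjusted p 0.285. The mean of Asz1 over all libraries was 13.9 normalised counts, not far above the filter of 10. Its highest values were 82.1 in WT ES replicate 2 and 34.8 and 52.2 in KO EB8. Asz1 thus met the filter mainly through groups that its tests compare, and each of its calls depends on that. The EB8 call was lost without WT EB8 replicate 2 (3.39, adjusted p 0.179), KO EB8 replicate 1 (4.71, adjusted p 0.0852) or KO EB8 replicate 2 (4.14, adjusted p 0.12).

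Tdrd1 (ENSMUSG00000025081, chromosome 19, 56900699 to 56944502, plus strand), a tudor-domain protein that holds piRNA factors in nuage, did not follow the other piRNA members. Its counts were 215.7 and 67.8 in WT ES versus 116.2 and 96.5 in KO ES. They were 318.9 and 140.5 in WT EB4 versus 136.7 and 159.5 in KO EB4. At EB8 they were 104.0 and 15.9 in WT versus 84.4 and 122.5 in KO. The genotypes overlapped at each of these stages, and at EB5 as well (253.1 and 58.2 in WT, 192.5 and 129.9 in KO). No contrast of Tdrd1 passed the test, and the EB8 log2 change of 1.29 ± 0.85 SE (limma adjusted p 0.305) turned to -0.03 without WT EB8 replicate 2.

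Tex19.1 (ENSMUSG00000039329, chromosome 11, 121007457 to 121009633, plus strand) restrains retrotransposons in germ cells and placenta and is known to be expressed in pluripotent cells. In WT its normalised counts were 1411.7 and 3446.7 at ES, 354.0 and 225.2 at EB4, 194.8 and 243.8 at EB5, and 207.9 and 140.8 at EB8. In KO they were 4109.2 and 6237.3, 2370.4 and 3223.5, 1536.9 and 1695.0, and 3283.4 and 2740.9. Every KO value of Tex19.1 lay above both WT values of its stage, and each KO embryoid body library was above the lower WT ES library. The gene was the only member to rise in KO at EB4 (9.66-fold, log2 change 3.29, limma adjusted p 0.00434), where 2.75% of all genes were called higher, and at EB5 (7.37-fold, 2.88, limma adjusted p 0.00682), where 2.17% were. At EB8 it rose 17.3-fold (4.12 ± 0.38 SE, limma adjusted p 4.32e-05), and at ES the 2.13-fold difference did not pass (1.20, limma adjusted p 0.235).

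The EB8 call of Tex19.1 was kept under each alternative tried, but those at EB4 and EB5 were lost without KO replicate 2 of the stage (3.07, adjusted p 0.07 at EB4 and 2.81, adjusted p 0.079 at EB5) and without the libraries with a raised X chromosome (3.07, adjusted p 0.143 and 2.81, adjusted p 0.128). In these fits few genes or none could be called, with 0 of 16140 and 0 of 16093 passing without KO replicate 2 and 1 of 15925 at each stage without the libraries with a raised X chromosome. Tex19.2, a near copy on the same chromosome with which reads could be shared, had between 2.1 and 188.9 counts in the 16 libraries, with 2.1 and 7.4 in WT EB8 versus 188.9 and 96.9 in KO EB8. How many reads match both copies was not measured, so the counts of the pair are uncertain. The order of the group means put KO ES first and the WT embryoid bodies last. Of the 7 neighbouring pairs in that order, 2 did not overlap, KO ES over KO EB8 and KO EB5 over WT EB4.

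Stra8 (ENSMUSG00000029848, chromosome 6, 34870163 to 34889342, plus strand) is the gatekeeper of meiotic entry and is known to respond to retinoic acid. Its promoter is shown because the response can be set beside the letters: in the 250 bases before the RefSeq start (GRCm38.p6 entry, found once and without mismatch in NCBI37 at chr6:34870698-34870947, plus strand) the 2 capital stretches are AGGTCA, a retinoic acid receptor half-site, at positions -194 and -38 from the start. The RefSeq start lies 785 bases past the start of the gene interval given above, so the stretch falls inside that interval. Half-site letters, with their variants, stood in 43.7% of 32851 promoters, and their part in the response was not tested.
Stra8: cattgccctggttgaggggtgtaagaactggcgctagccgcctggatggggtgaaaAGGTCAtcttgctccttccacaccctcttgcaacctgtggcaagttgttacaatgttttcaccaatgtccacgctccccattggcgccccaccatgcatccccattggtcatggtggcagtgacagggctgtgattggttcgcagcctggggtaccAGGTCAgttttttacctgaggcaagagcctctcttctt
At EB4, before retinoic acid, Stra8 had 2 and 4 reads in WT and 4 and 13 in KO, or 2.2 and 4.3 against 4.7 and 16.6 normalised counts. At EB5 it had 4533.7 and 1549.5 normalised counts in the WT libraries versus 4486.4 and 7028.3 in KO. Both genotypes thus moved from near the floor of detection to high counts between these stages. No group of the EB5 or EB8 stage went without retinoic acid, so retinoic acid and time in culture cannot be told apart here. The rise was 939-fold in WT (log2 change 9.33, limma adjusted p 1.86e-05) and 542-fold in KO (9.13, limma adjusted p 4.34e-05). With 6 reads in WT EB4, the scaled ratio of summed WT reads was 976 with an exact 95% binomial interval of 448 to 2660 (counting error only). This contrast was added after the values of Stra8 had been seen. No other member was called between EB4 and EB5, against 2.59% of all genes called higher in WT and 1.82% in KO.

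By EB8 Stra8 had reached 7623.8 and 4834.4 normalised counts in the WT libraries versus 29637.8 and 19045.4 in KO. The 3.91-fold difference between genotypes exceeded the gap between replicates, with no overlap, but fell just short of the threshold (log2 change 1.97 ± 0.67 SE, limma adjusted p 0.0521). It passed with edgeR (adjusted p 0.0292), DESeq2 (adjusted p 0.00599), quantile normalisation (adjusted p 0.0222) and 4 further alternatives. At ES both KO values lay below both WT values, with 83.7 and 299.0 counts in WT versus 14.1 and 16.4 in KO, but the test was not passed (-3.30, limma adjusted p 0.107). In the order of its 8 group means KO EB8 stood first and WT EB4 last, and 4 of the 7 neighbouring pairs did not overlap, which was the largest number among the 9 genes.

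Sycp1 and Sycp3 build the synaptonemal complex that zips homologous chromosomes together in meiosis, Sycp1 as the transverse filament and Sycp3 in the lateral element. Sycp1 (ENSMUSG00000027855, chromosome 3, 102622422 to 102740023, minus strand) had normalised counts in WT of 347.7 and 575.6 (ES), 266.3 and 57.9 (EB4), 288.9 and 25.3 (EB5) and 297.2 and 27.5 (EB8). Its KO counts at these stages were 153.6 and 424.5, 71.3 and 185.0, 129.9 and 293.8, and 266.9 and 537.9. The replicates of a group lay far apart. In the WT embryoid bodies replicate 1 was the higher by 2.18, 3.46 and 3.39 on the log2 scale, and in KO replicate 2 was the higher at each stage, by 1.01 to 1.46. KO replicate 2 had a raised X chromosome at each stage and WT replicate 1 of the embryoid bodies a raised chromosome 8, and their part in this split was not tested. The EB8 difference of 2.04 ± 1.22 SE did not pass (limma adjusted p 0.252).

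Sycp3 (ENSMUSG00000020059, chromosome 10, 87922314 to 87935981, plus strand) showed the same split of replicates, with WT counts of 750.7 and 153.3 at EB4, 611.6 and 54.9 at EB5 and 57.8 and 3.2 at EB8, against 158.9 and 389.2, 213.3 and 478.1, and 98.1 and 249.3 in KO. At ES it had 107.4 and 279.8 in WT versus 54.0 and 134.4 in KO. The 3 reads of WT EB8 replicate 2 were at the floor, and both KO EB8 libraries lay above both WT ones. The log2 change of 3.33 ± 1.30 SE did not pass (limma adjusted p 0.0846), but it did without WT EB8 replicate 1 (5.24, adjusted p 0.0242). Sycp3 shares 660 exonic bases with Chpt1 on the other strand, and since the library kit does not mark strand, reads there cannot be told apart. Chpt1 had 293.1 to 1190.8 counts, and at EB8 557.6 and 640.6 in WT against 1028.7 and 1079.1 in KO.

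The comparison of KO with WT before differentiation gave another picture. In ES cells 0 of the 9 members passed (limma), as did 0% of all genes, and 4 members and 1846 genes had an unadjusted p under the same threshold. Of the members 8 had a negative log2 change and 1, Tex19.1, a positive one, with a median of -1.02. In WT ES replicate 2 Dazl was higher than in replicate 1 by 3.82 and Asz1 by 3.33 on the log2 scale. For Ddx4 and Tdrd1 replicate 1 was the higher, and their changes turned to 0.33 and 0.64 without it. Without WT ES replicate 1, Dazl (-4.13, adjusted p 0.0375) and Stra8 (-4.21, adjusted p 0.0374) passed as lower in KO, as they did with DESeq2 (adjusted p 0.0111 and 1.01e-05), while edgeR called 0. Over all genes at ES DESeq2 called 461 of 15946, of which 364 were lower, and edgeR called 0 of 16124. Without the libraries with a raised X chromosome the log2 change of Dazl was -0.70.

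**Figure D3:**
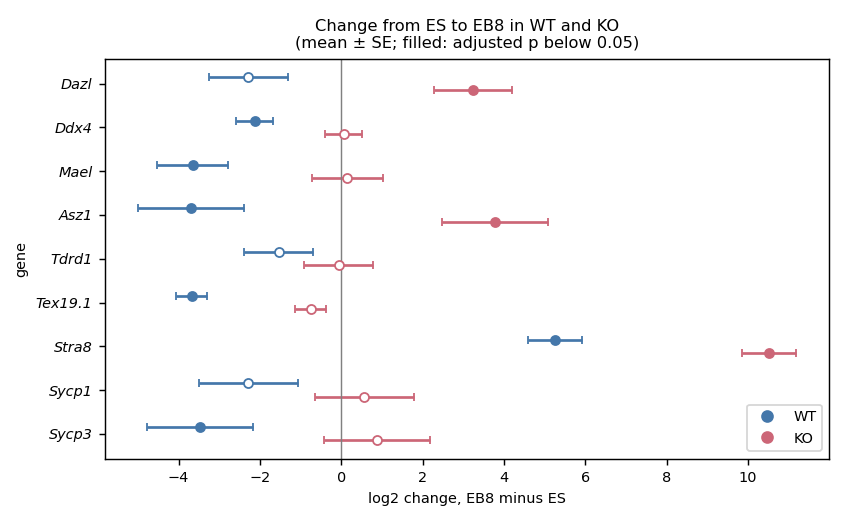
Log2 change from ES to EB8 (x axis) of each germline gene (y axis) in WT and in KO, with bars of 1 SE from limma and filled points for adjusted p below 0.05. Of the WT changes 5 are filled below 0, none of the KO changes is, and Stra8 is filled above 0 in both.

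The course from ES to the embryoid bodies asks whether the genes were shut down as WT cells left pluripotency and whether they were in KO. From ES to EB4, 3 members fell in WT, Asz1 (log2 change -4.18, limma adjusted p 0.0456), Tex19.1 (-2.96, limma adjusted p 0.00106) and Stra8 (-5.28, limma adjusted p 0.00103), against 7.57% of all genes called lower. The Asz1 call was lost without either WT EB4 library (adjusted p 0.0898 and 0.184). In KO 0 members passed with limma, edgeR or DESeq2, with 1 at an unadjusted p under the threshold and 3.50% of all genes called.

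From ES to EB8, 5 members fell in WT (Ddx4, Mael, Asz1, Tex19.1 and Sycp3), where 22.8% of all genes were called lower, and 1 rose, Stra8 (32.6-fold, log2 change 5.25, limma adjusted p 7.38e-05), where 24.0% were called higher. Tex19.1 fell by 3.68 on the log2 scale (limma adjusted p 1.71e-05), Asz1 by 3.69 (limma adjusted p 0.034) and Sycp3 by 3.48 (limma adjusted p 0.0437). WT ES replicate 2 had a raised X chromosome and no WT embryoid body library did, and its part in these changes was not tested. Without the libraries with a raised X chromosome the calls of Mael and Sycp3 were lost (log2 change -3.14 and -2.79). The calls of Mael, Asz1 and Sycp3 were lost without WT EB8 replicate 2 (adjusted p 0.0517, 0.209 and 0.389), and that of Sycp3 was lost under 10 of 18 alternatives, among them edgeR (adjusted p 0.107), DESeq2 (adjusted p 0.0964) and leaving out WT ES replicate 1 or 2 (adjusted p 0.0614 and 0.196). In KO 3 members rose from ES to EB8, where 19.7% of all genes were called higher. These were Dazl (3.24, limma adjusted p 0.0189), Asz1 (3.77, limma adjusted p 0.0374) and Stra8 (1590-fold, 10.52, limma adjusted p 5.56e-06). No member fell in KO, but in a fit of only the compared groups Tex19.1 did (-0.75, adjusted p 0.0456, against 0.139 with all groups). The Dazl call was lost without KO ES replicate 1 (adjusted p 0.11) or KO EB8 replicate 1 or 2 (adjusted p 0.0864 and 0.0587), and that of Asz1 without any 1 of the 4 KO libraries (adjusted p 0.0915 to 0.15).

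The difference between these courses was tested as an interaction. For 4 of the 9 members the change from ES to EB8 was more positive in KO than in WT, Dazl (5.52 ± 1.36 SE, limma adjusted p 0.031), Asz1 (7.45 ± 1.84 SE, limma adjusted p 0.0311), Tex19.1 (2.93 ± 0.54 SE, limma adjusted p 0.00921) and Stra8 (5.26 ± 0.95 SE, limma adjusted p 0.00833). Of all genes 3.85% were called in that direction. The interaction is also the genotype difference at EB8 minus that at ES. At ES, where no member passed, KO minus WT was -2.22 for Dazl, -3.03 for Asz1, -3.30 for Stra8 and 1.20 for Tex19.1. For Dazl, Asz1 and Stra8 a lower KO level at ES thus made up part of the value. The interaction of the other 5 was positive too, at 1.48 to 4.35, but did not pass, with limma adjusted p 0.0564 for Ddx4 and 0.0782 for Mael. Without the 5 libraries with a raised X chromosome no interaction passed for any of the 15925 genes tested, and the values were 4.20 for Dazl, 2.71 for Tex19.1 and 4.77 for Stra8. The calls of Dazl and Asz1 were each lost without WT EB8 replicate 2 or any 1 KO library of the comparison. That of Dazl was also lost without WT ES replicate 2 (3.61). Asz1 fell below the filter without WT ES replicate 2 and was not tested there. It met the filter mainly through that library and KO EB8. High values in these groups make the interaction more positive, so the Asz1 call depends on the filter.

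The genes did not form a single pattern over the 16 libraries. Pearson correlations of log2 values between the 36 pairs of members ran from -0.34 to 0.95 with a median of 0.53, as a description only, since libraries of a group share genotype and stage. Dazl and Asz1 were the closest pair (0.95). The gene most like Dazl was Sohlh2, a transcription factor of early germ cells (0.968), followed by Asz1 and Fkbp6, a piRNA pathway gene (0.906). The genes nearest to Sycp3 were Sult5a1 (0.931), Klhl8 (0.913) and Sycp2, its partner in the lateral element (0.91). The genes nearest to Stra8 included Nfix (0.943) and Hoxb4 (0.942), and those nearest to Tex19.1 Psmd5 (0.958) and Trap1a (0.957). Ctnna1 (0.936) and Adad1 (0.928) were nearest to Ddx4, Abcb1a (0.971) to Mael, Thbs4 (0.894) to Tdrd1 and Gm13251 (0.913) to Sycp1.

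Levels of different genes are compared per kilobase of exon. In KO EB8 Stra8 had the highest level, with 13500 normalised counts per kilobase, and Tex19.1 followed with 1610. Dazl (287), Ddx4 (271), Mael (192), Sycp3 (137) and Sycp1 (116) formed a middle group, and Tdrd1 (19) and Asz1 (15.4) were the lowest. In WT EB8 Stra8 (3460) and Tex19.1 (93.1) were again first, and Asz1 was last (0.557). In WT ES cells Tex19.1 had the highest level, with 1300 per kilobase, against 15.8 for Asz1. The order thus placed Stra8 above all others only at the stages with retinoic acid, which were also the later ones.

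The promoters of the members were set beside these courses, because E-box (CACGTG) and E2F core (TCCCGC) letters are those through which repressors of germline genes bind. In the 300 bases around the RefSeq start (250 before, 50 after), searched on both strands, 5 of the 9 members held an E-box, against 7.15% of 32851 promoters of the same length in the table, and 5 held an E2F core, against 20.0%. Ddx4, Mael, Sycp1 and Sycp3 held both, Tdrd1 an E-box alone at 2 of its 3 RefSeq starts, and Tex19.1 an E2F core alone. Dazl, Asz1 and Stra8 held neither. Retinoic acid half-sites (AGGTCA and its variants, namely AGTTCA along with GGGTCA as well as GGTTCA) were in 3 members, against 43.7%, and Stra8 alone held 2. Such matches are letters and not sites of binding. The E-box and the E2F core each contain a CpG. At their first start 9 of 9 members had more CpG than the median of all promoters, and 4 of 9 more than the upper quartile. Shares among promoters of like CpG content were not measured, so the shares above show no enrichment beyond CpG content. Below are the 250 bases before the start of Tex19.1, called at each embryoid body stage, of Ddx4 and Mael, which fell in WT from ES to EB8 and hold both motifs, and of Dazl, which holds neither, 5′ to 3′ on the strand of the gene, with E-box and E2F core letters in capitals.
Tex19.1: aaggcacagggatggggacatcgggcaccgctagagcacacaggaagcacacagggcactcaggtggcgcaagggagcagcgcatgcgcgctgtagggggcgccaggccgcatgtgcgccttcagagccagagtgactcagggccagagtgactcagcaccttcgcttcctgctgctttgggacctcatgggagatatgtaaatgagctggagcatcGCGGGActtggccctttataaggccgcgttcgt
Ddx4: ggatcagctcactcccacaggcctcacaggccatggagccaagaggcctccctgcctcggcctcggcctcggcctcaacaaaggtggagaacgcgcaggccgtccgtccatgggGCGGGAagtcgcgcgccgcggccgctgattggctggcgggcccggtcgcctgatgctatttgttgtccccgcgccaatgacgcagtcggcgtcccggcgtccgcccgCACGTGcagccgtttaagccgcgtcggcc
Mael: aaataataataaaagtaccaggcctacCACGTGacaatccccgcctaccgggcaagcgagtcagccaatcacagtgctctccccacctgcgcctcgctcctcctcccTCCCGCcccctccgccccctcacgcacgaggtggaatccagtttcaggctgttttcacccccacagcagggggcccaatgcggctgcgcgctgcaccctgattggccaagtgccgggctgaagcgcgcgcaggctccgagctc
Dazl: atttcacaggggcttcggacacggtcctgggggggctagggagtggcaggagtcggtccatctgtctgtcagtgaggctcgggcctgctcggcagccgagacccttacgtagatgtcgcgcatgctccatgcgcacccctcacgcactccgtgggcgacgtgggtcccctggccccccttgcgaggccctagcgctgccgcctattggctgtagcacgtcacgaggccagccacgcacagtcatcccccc
These stretches lie at chr11:121007207-121007456 (plus strand), chr13:113442519-113442768, chr1:168168876-168169125 and chr17:50432946-50433195 (minus strand) of NCBI37, where each RefSeq sequence was found once. Ddx4 has an E-box from position -29 and an E2F core from -136, Mael an E-box from -223 and E2F cores from -143 and, past the start, from 12, and Tex19.1 an E2F core from -33. The number of CpG in 300 bases was 38 for Ddx4, 28 for Dazl, 24 for Mael, 21 for Sycp1, 17 for Asz1, 16 for Tex19.1, 15 for Sycp3 and 10 for Stra8, each above the median of 7 over all promoters. The 3 starts of Tdrd1 had 20, 25 and 3 CpG, the last of them below that median. Of the 5 genes called at EB8, 2 held an E-box, as did 3 of the 4 that were not called.

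**Figure D4:**
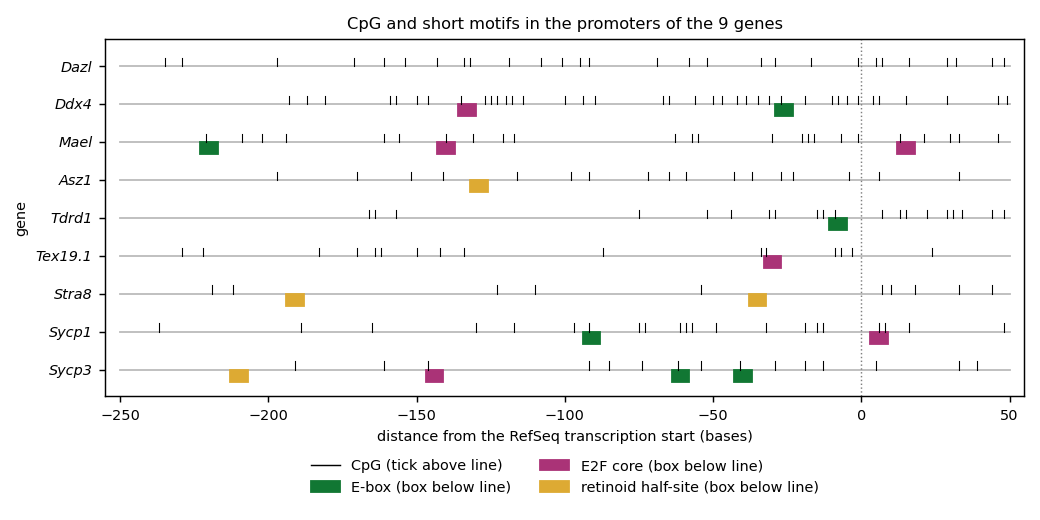
Positions of CpG (ticks above each line) and of E-box, E2F core and retinoic acid half-site letters (boxes below) in the 250 bases before and 50 bases after the RefSeq start of each germline gene, by distance from the start in bases. Boxes for the E-box stand in 5 genes and Stra8 shows 2 half-sites and the fewest CpG.

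The other genes of the same pathways were followed in lists chosen by function. Of 20 listed piRNA pathway genes 18 were tested, and at EB8 10 were higher and 2 lower in KO, with a median log2 change of 2.11. Over all tested genes 10.4% were called higher and 12.5% lower at EB8. The largest rises were those of Gtsf1 (5.13, limma adjusted p 0.0031), Fkbp6 (3.98, limma adjusted p 0.0273), Tdrd12 (3.71, limma adjusted p 0.000248) and Piwil4 (3.12, limma adjusted p 0.0126), all of which take part in piRNA-guided silencing. Tdrkh, which helps to trim piRNAs, fell (-1.42, limma adjusted p 0.00386), as did the helicase gene Ddx25 (-1.86, limma adjusted p 0.0154). Without the libraries with a raised X chromosome 7 of 16 tested were higher and 3 lower.

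Of 25 listed meiotic genes 18 were tested, 8 were higher and 0 lower in KO at EB8, and the median was 1.73. The shares over all genes were 10.4% higher and 12.5% lower. Hormad1 (3.84, limma adjusted p 0.00532) and Hormad2 (3.69, limma adjusted p 0.0153), which mark unsynapsed axes, Tex11, an X-linked crossover gene (3.25, limma adjusted p 0.00195), and Syce1 of the central element (3.23, limma adjusted p 0.0113) led. Dmc1, the meiotic strand-exchange recombinase, had 132.3 and 129.2 counts in WT EB8 versus 527.5 and 597.6 in KO (2.09, limma adjusted p 0.00507). The gene of the nuclease that starts meiotic recombination, Spo11, was below the filter, with 8.4 and 0.0 counts in WT EB8 versus 9.5 and 24.5 in KO. Without the libraries with a raised X chromosome 5 of 18 were higher.

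Among 22 regulators of primordial germ cells and gonocytes 16 were tested. In KO at EB8 11 were higher and 1 lower, against 10.4% and 12.5% of all genes, with a median of 2.65. Prdm14 (4.49, limma adjusted p 0.000716), Dppa3 (4.49, limma adjusted p 0.0014), the X-linked Taf7l (3.55, limma adjusted p 0.0128) and Tfap2c (3.50, limma adjusted p 0.000717) rose most, and Gfra1, a receptor of spermatogonia and also of neurons, fell (-1.89, limma adjusted p 0.0191). Of the 5 defining germ cell markers, each had a positive log2 change and 2 passed. Dppa3 and Kit (1.48, limma adjusted p 0.00803) rose, whereas Prdm1, Nanos3 and Dnd1 had log2 changes of 1.20, 0.86 and 1.17 that did not pass (limma adjusted p 0.0978, 0.267 and 0.2). Without the libraries with a raised X chromosome 3 of the 5 passed. Dppa3, Prdm14 and Tfap2c are expressed in ES cells too, and of the 7 ES cell markers 5 were higher in KO at EB8, among them Nanog (5.41, limma adjusted p 7.67e-05) and Esrrb (4.35, limma adjusted p 1.44e-05). Whether the part of ES cell markers in these rises is large or small was not tested.

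**Figure D5:**
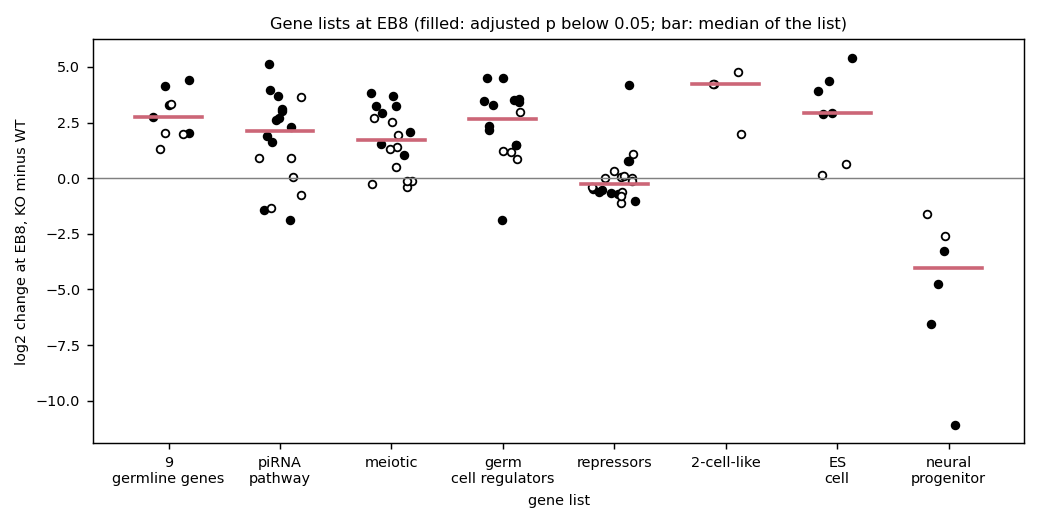
Log2 change at EB8, KO minus WT (y axis), of each tested gene in the germline group and 7 other lists (x axis), with filled points for limma adjusted p below 0.05 and a bar at the median. Most filled points of the 9 germline genes, the piRNA, meiotic, germ cell regulator and ES cell lists lie above 0, those of neural progenitor markers below it, and the repressor list is centred near 0.

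The repressors of germline promoters were also counted. Of 20 such genes, 3 were higher and 6 lower in KO at EB8, with a median of -0.27. Over all genes 10.4% were called higher and 12.5% lower, so the count of higher repressors was near that share. Dnmt3l, a cofactor of DNA methylation that is itself expressed in ES and germ cells, had the largest change (143.9 and 68.8 counts in WT, 2206.1 and 1519.0 in KO, 4.19, limma adjusted p 0.000178). L3mbtl2, a subunit of the repressor complex PRC1.6, rose (0.76, limma adjusted p 0.0239), as did the histone deacetylase gene Hdac1 (0.76, limma adjusted p 0.00595), whereas Hdac2, its paralogue, fell (-1.03, limma adjusted p 0.000941). The histone methyltransferase genes Ehmt2 (-0.69, limma adjusted p 0.0179) and Ehmt1 (-0.67, limma adjusted p 0.00425) fell as well. The E-box and E2F binders did not pass, with 0.08 for Max, 0.04 for Mga and -0.42 for E2f6 (limma adjusted p 0.742, 0.913 and 0.0575). Without the libraries with a raised X chromosome 1 repressor was higher and 2 lower. Markers of fibroblasts (0 of 7 tested passed at EB8, 2240 and 3030 summed counts in WT, 1010 and 3600 in KO) gave no call, and of the 4 endoderm markers tested 0 were higher and 2 lower.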

How the data were processed

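Polyadenylated RNA of 16 libraries was sequenced by the authors as single-end reads of 54 bases. Per the submitters' processing notes the tools were CASAVA 1.7 and 1.8, TopHat2 2.0.10, HTSeq 0.5.4p3 and DESeq2 1.0.19, with build mm9 (NCBI37). The release of the annotation and the strand setting are not given in the sources used here. The deposited signal is a gene's read count over the size factor of its library. In each library 100.0% of values were whole multiples of a step of 0.7147 to 1.2761 (tolerance 0.01 reads), so reads and depth were recovered by dividing by it. Intervals and the floor of 3 reads take in counting error alone, since PCR duplicates are not separate molecules.

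limma 3.58.1 (R 4.3.3) was fitted on log2(normalised count + 1) of the 16124 genes with a mean of at least 10, a mean per group over all 8 groups, with eBayes and trend, Benjamini-Hochberg adjustment over all genes tested and a threshold of 0.05. Fold changes of low genes are understated on that scale, and folds in the text are ratios of mean normalised counts. The script was tested on simulated data. Alternatives were edgeR 4.0.16 and DESeq2 1.42.0 on recovered reads, other pseudocounts, filters and scalings, replicate blocks, only the compared groups, and leaving out libraries. An adjusted p that DESeq2 did not give was left out. Positions are from GENCODE M1 on NCBI37 (27603 identifiers found, 204 not), and promoters from RefSeq (GRCm38.p6; 9 of 9 members matched), located in NCBI37 by exact match. The members and lists were chosen with earlier results of these data known. Each member is named. From the lists, called genes with large changes are named, with others chosen for their function or direction, some of them not called. Of the nearest 3 genes by correlation, 1 to 3 are printed. Figures were drawn with Python 3.11.15. The 2 comparisons of EB5 with EB4, the fit without the 5 libraries with a raised X chromosome and the exchanged replicate block were added after the data had been seen.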

Additional observations from a re-analysis of the deposited data

Results flagged for a closer look

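For 4 genes the change from ES to EB8 differed between the genotypes by a test of the difference itself (limma interaction, log2, KO change minus WT change). The value was 5.52 for Dazl (adjusted p 0.031), 7.45 for Asz1 (adjusted p 0.0311), 2.93 for Tex19.1 (adjusted p 0.00921) and 5.26 for Stra8 (adjusted p 0.00833). For Dazl, Asz1 and Stra8 part of the value was a lower KO level at ES, where the genotype difference did not pass. For Dazl and Asz1 the WT ES mean rested on replicate 2, with 1581.8 and 82.1 normalised counts against 111.0 and 7.3 in replicate 1. Without that library the Dazl value was 3.61 (adjusted p 0.0581). Asz1 fell below the filter without WT ES replicate 2 and was not tested there. Asz1 met the filter mainly through WT ES replicate 2 and KO EB8. High values in these groups make this difference more positive, so its call depends on the filter. Groups of 2 libraries are too small to look for single outlying samples.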

How the results depend on the processing

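The log2 change of Tex19.1 at EB8 and those of Stra8 from EB4 to EB5 passed under each alternative run. The number of the 9 genes called at EB8 was 5 with all 16 libraries and 2 at a threshold of 0.01 or without the 5 libraries with a raised X chromosome, and leaving out 1 library gave 1 to 6. At EB4 the count of 1 became 0 in a fit of only the compared groups. In that fit 0 of all 15476 genes passed, and the log2 change of Tex19.1 stayed at 3.29. Without those 5 libraries the Tex19.1 calls at EB4 and EB5 were lost as well (log2 change 3.07 and 2.81). Leaving out 1 library gave 0 to 1 at both stages and 0 to 2 at ES, where DESeq2 called 2. From ES to EB8 the WT count of 6 became 3 without the 5 libraries, and leaving out 1 library gave 3 to 8. The KO count of 3 became 1 at a threshold of 0.01, and leaving out 1 library gave 1 to 2. The interaction count of 4 became 2 at a threshold of 0.01 and 0 without the 5 libraries (as for all genes), and leaving out 1 library gave 2 to 4.

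Replicate numbers were not taken as pairs. Differences between replicates correlated at -0.058, -0.209 and -0.133 between WT and KO at EB4, EB5 and EB8, at 0.335 at ES, at 0.523 to 0.605 among the WT embryoid bodies and at 0.233 to 0.422 among the KO stages. With the replicate block 5 genes were called at EB8, and 6 with the KO numbers exchanged, where 4081 and 4154 of all 16124 genes were called. With the replicate block within genotype 8 were called at EB8, with Tdrd1 (adjusted p 0.0309), Stra8 (adjusted p 0.0498) and Sycp3 (adjusted p 0.0191) in addition, and 7 in the interaction, with Ddx4 (adjusted p 0.00702), Mael (adjusted p 0.0203) and Sycp3 (adjusted p 0.0488) in addition. Calls rose over the whole table too. Of all 16124 genes that block called 4779 at EB8 (2232 higher) and 2156 in the interaction (1155 higher), against 3697 and 1175 without a block.

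Signs turned only for changes that did not pass. Quantile normalisation gave 0.16 for Tdrd1 at ES. Leaving out 1 library gave -0.65 to 0.33 for Ddx4 at ES, -1.02 to 0.64 for Tdrd1 at ES, -0.30 to 0.12 for Ddx4 at EB4, -0.53 to 2.78 for Asz1 at EB4, -1.11 to 0.07 for Tdrd1 at EB4, -1.21 to 0.98 for Sycp1 at EB4, -1.59 to 0.69 for Sycp3 at EB4, -0.68 to 1.43 for Tdrd1 at EB5, -0.56 to 2.90 for Sycp1 at EB5, -0.94 to 2.52 for Sycp3 at EB5 and -0.03 to 2.60 for Tdrd1 at EB8. The cause of these turns was not tested. Upper-quartile rescaling moved the median of all genes by 0.14 at EB8, by 0.119 from ES to EB8 in KO and by 0.195 in the interaction. With 2 libraries a group, and Asz1 and part of the Stra8 and Sycp3 values at or near 3 reads, differences of low genes were limited by depth.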

Other observations

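Genes of the 2-cell-like state of ES cells were compared at EB8 as well. Zscan4d, a gene of that transient state, had 24.2 and 3.2 normalised counts in WT EB8 versus 92.8 and 850.1 in KO EB8, and Zscan4c had 11.6 and 3.2 against 39.0 and 466.6. The values of both genes were higher in both KO libraries, but the difference between genotypes did not pass (limma log2 change 4.79 and 4.24, adjusted p 0.0574 and 0.06), as it did for 0 of the 4 tested genes of the list. From ES to EB8 the 4 rose in KO (median log2 change 6.7), and 0 passed in WT (median 0.19) or in the interaction of genotype and stage (median 5.98). The summed counts of the 5 genes in the table were 20.1 and 60.9 in WT EB8 versus 185 and 1790 in KO EB8, the last of these in replicate 2. Zscan4 genes are near-identical copies, so that reads may be split between them, and those of KO EB8 replicate 2 come from a library with a raised X chromosome.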
